A study of Homo sapiens with 16 samples.

Results

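The genes described here are 22 neighbours in band 14q24.3 of human chromosome 14, from FAM161B to JDP2, measured exon by exon in L1236, an established cell line of Hodgkin lymphoma. Their members are exon-level probe sets, which are small groups of array probes that read about one exon each. The genes were chosen by measured values: they lie side by side and most of them differed in one direction between the arrays labelled induced and those labelled uninduced. FOS, which lies between TMED10 and JDP2, is not in the list. The rule, a probe set whose only gene symbol is one of the 22, found 267 of the 224320 exon-level probe sets with 1 symbol. Because the contrast between the labels chose the genes, every value of that contrast below is a description without a test.

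All cells grew in RPMI medium with FBS and carried a retrovirus with a short hairpin RNA against REL-B (RELB), a subunit of the transcription factor NF-kB. One group was infected and left uninduced, the other was infected and given doxycycline to switch the hairpin on, and each has 4 arrays. By their titles the arrays are called replicate 1 (B_1, last number 1), replicate 2 (B_1, last number 4), replicate 3 (B_4, last number 1) and replicate 4 (B_4, last number 4), and the labels do not say what the B codes or numbers stand for. Nothing states that the 4 came from separate cultures or clones, so the spread between arrays may be technical. The number of arrays limits the precision.

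The values are log2 signals, so a difference of 1 is a 2-fold difference. RELB itself, averaged over its 11 probe sets, was 7.63 ± 0.14 (SD, n = 4) under the uninduced label and 7.51 ± 0.12 under the induced label, and these ranges overlap. The targeted gene thus does not bear out the labels, and the groups are named by their labels throughout. Of 8 markers of Hodgkin cells, 6 lay above the median of all probe sets (6.58) under the uninduced label and 5 under the induced label, with mean signals from 7.70 to 7.86 and from 7.81 to 8.06. TNFRSF8, which encodes the Hodgkin marker CD30, read 6.71 ± 0.24 and 11.11 ± 0.10 under these labels. TRAF1 was also higher under the induced label (6.09 and 8.25), and FSCN1 (9.07 and 6.57), FUT4 (8.23 and 5.72) and CD40 (8.64 and 7.21) were lower. Measured B-cell markers above that median numbered 1 of 5 and 3 of 5, and their mean signal ran from 5.94 to 6.06 under the uninduced label and from 8.09 to 8.36 under the induced label. CD79A, part of the B-cell receptor, read 5.33 ± 0.13 and 9.85 ± 0.28, while MS4A1, which encodes CD20, was low in both groups (3.98 and 4.18). No marker of T cells (0 of 5), myeloid cells (0 of 4) or fibroblasts (0 of 4) was above that median in either group, and the mean signals of these lists ran from 4.67 to 6.09. The part of these marker differences in the results below was not tested. In bulk samples, fewer cells of a type and less RNA per cell cannot be told apart.

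Human genes often stand head to head, so that a single stretch of DNA lies between the start of a gene on the minus strand and the start of its neighbour on the plus strand. Several genes of this interval are built that way. The genes have little in common in function: the list holds mitochondrial enzymes, lysosomal and secretory proteins, factors for DNA repair, ribosome assembly and translation, and a few genes that are known mainly from particular tissues. Most of the mitochondrial, lysosomal and translation genes are active in nearly every cell type.

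The sequences between the starts of head-to-head neighbours are shown because they are start regions that neighbours share. Only starts that lay apart by a short distance were looked for, so genes not shown here may share a start region too. They are from RefSeq, assembly GRCh38.p14, plus strand, 5′ to 3′, and CCAAT boxes on either strand (CCAAT, or ATTGG when read from the other strand) are in capitals. Promoter windows, from 250 bases before to 50 bases after a start, were found for all 22 genes. Between FAM161B and COQ6 lie 207 bases at chr14:73950095-73950301, between ENTPD5 and BBOF1 60 bases at chr14:74019289-74019348, and between NPC2 and ISCA2 252 bases at chr14:74493513-74493764. Between AREL1 and FCF1 lie 63 bases at chr14:74713081-74713143, and between ACYP1 and ZC2HC1C 150 bases at chr14:75069491-75069640. BBOF1, AREL1 and ZC2HC1C are not members.
FAM161B and COQ6: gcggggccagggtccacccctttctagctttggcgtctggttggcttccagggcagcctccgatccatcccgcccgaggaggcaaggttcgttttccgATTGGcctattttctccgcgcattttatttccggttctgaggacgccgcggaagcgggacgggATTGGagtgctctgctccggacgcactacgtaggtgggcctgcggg
ENTPD5 and BBOF1: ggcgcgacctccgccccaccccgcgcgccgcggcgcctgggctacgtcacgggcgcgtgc
NPC2 and ISCA2: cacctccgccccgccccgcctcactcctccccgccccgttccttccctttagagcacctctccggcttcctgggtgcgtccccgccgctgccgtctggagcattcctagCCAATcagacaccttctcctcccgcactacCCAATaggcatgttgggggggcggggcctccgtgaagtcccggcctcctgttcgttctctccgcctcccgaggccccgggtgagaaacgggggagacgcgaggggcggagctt
AREL1 and FCF1: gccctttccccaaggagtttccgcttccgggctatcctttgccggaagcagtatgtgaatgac
ACYP1 and ZC2HC1C: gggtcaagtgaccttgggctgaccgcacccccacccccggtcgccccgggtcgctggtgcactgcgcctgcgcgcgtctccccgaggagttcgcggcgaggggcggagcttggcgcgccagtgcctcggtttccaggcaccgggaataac

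The 2 stretches that lie between members, FAM161B with COQ6 and NPC2 with ISCA2, hold 2 CCAAT boxes each, and the other 3 stretches hold 0. Both strands of the 30 member windows were searched for 5 motifs, and CCAAT was in 9 of them (30%), against 34.6% of all 35116 windows. The AP-1 site TGANTCA was in 2 member windows (6.67%, against 7.71% of all), those of PROX2 and TMED10. The E-box CACGTG was in 2 (6.67%, against 7.26%), those of LIN52 and TMED10, the TATA box TATAAA in 2 windows of COQ6 (6.67%, against 11.5%), and the CRE TGACGTCA in 0 (against 1.85%). In the TMED10 window the AP-1 site and the E-box overlap, as the capitals show in the 100 bases before its start, chr14:75176613-75176712, minus strand.
TMED10: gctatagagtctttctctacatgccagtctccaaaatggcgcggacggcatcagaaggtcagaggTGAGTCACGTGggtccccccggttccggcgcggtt

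Along the interval, the arrays labelled induced gave higher signals for nearly every gene. Of the 267 member probe sets, 225 were higher in arrays labelled induced. A mean of 4.77 or more over the 8 arrays was asked of a probe set, and 241 members passed; of these 212 were higher and 29 lower, with a median difference of 1.03 against 0.03 over all 168240 probe sets that passed. In 160 of the 241 (66.4%) the 4 arrays labelled induced all lay above the 4 labelled uninduced, as they did in 18.5% of all probe sets, and in 7 (2.9%) they all lay below, as in 18.1% of all. The 26 members that did not pass were split, with 13 higher and 13 lower and differences from -1.52 to 2.16. A dim probe set could pass through the arrays of either label alone, and such probe sets are in these counts. These shares only describe what chose the genes.

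Averaged over its passing probe sets, a gene was higher in arrays labelled induced in 21 of 22 cases. The difference was 1 or more for 11 genes, from 0.5 up to 1 for 6, and below 0.5 for 5. For 18 genes the groups did not overlap, which makes all 4 pairs higher as well. PROX2 is among them through 1 probe set, given below. No share over all genes of the arrays was taken, so these counts do not show how unusual the genes are. In 16 genes every passing probe set was higher. The 14 genes of the minus strand and the 8 of the plus strand had median differences of 0.89 and 1.09.

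**Figure D1:**
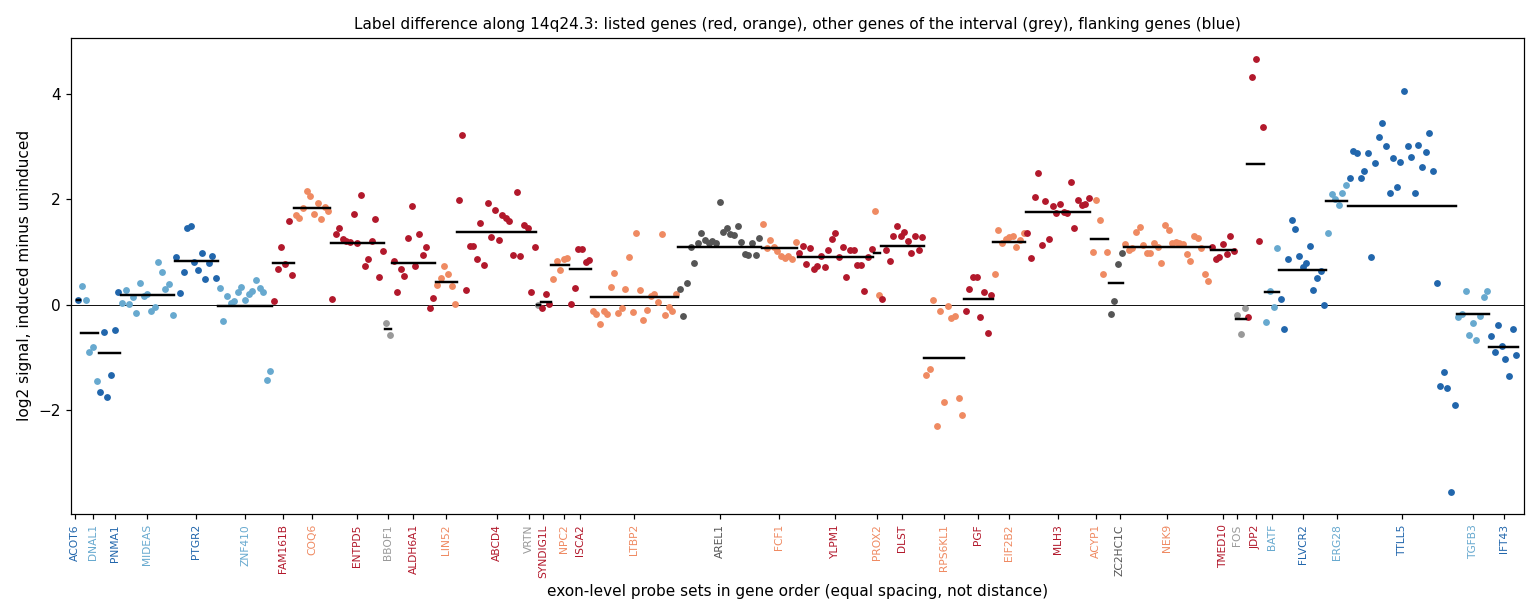
Each point is an exon-level probe set that passed the filter, in gene order with equal spacing; the vertical axis is its log2 signal in arrays labelled induced minus uninduced, and bars are gene means. Most points of the listed genes (red and orange) lie near 1, those of RPS6KL1 reach -2.29, those of LTBP2 and PGF scatter around 0, and the flanking gene TTLL5 (blue, right) changes from positive to negative inside the gene.

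The members are given by their known roles, which were not tested as groups. Of the 22, 18 were higher without overlap, and LTBP2, PGF, SYNDIG1L and RPS6KL1 were not. The first are the mitochondrial ones. COQ6, a hydroxylase of coenzyme Q synthesis, read 7.68, 7.72, 7.48 and 7.33 in replicates 1 to 4 labelled uninduced. In the same replicates labelled induced it read 9.53, 9.22, 9.44 and 9.34. Every array labelled induced thus lay well above every array labelled uninduced, a difference of 1.83 ± 0.11 (SE) or 3.55-fold, and its 10 passing probe sets kept within 1.62 and 2.16. DLST, a subunit of the 2-oxoglutarate dehydrogenase complex of the citric acid cycle, was higher by 1.11 ± 0.10, from 8.72 ± 0.16 (SD) to 9.82 ± 0.13. ALDH6A1, an enzyme of valine breakdown, was higher by 0.80 ± 0.15. ISCA2, an assembly factor for iron-sulfur proteins, was higher by 0.68 ± 0.09. All 4 genes had groups that did not overlap.

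Of the members that act in lysosomes, the endoplasmic reticulum or the Golgi, ABCD4, ENTPD5, TMED10 and NPC2 are given next. ABCD4, a transporter that releases vitamin B12 from lysosomes, read 6.96, 7.16, 7.19 and 7.09 in arrays labelled uninduced. It read 8.57, 8.48, 8.39 and 8.47 in arrays labelled induced. The groups were far apart, with a difference of 1.38 ± 0.06 or 2.60-fold, and 22 of 22 passing probe sets were higher. That difference was 1.25 with only probe sets above the median signal. ENTPD5, a nucleotidase of the endoplasmic reticulum, was higher by 1.17 ± 0.09. TMED10, a cargo receptor between endoplasmic reticulum and Golgi, read 9.81, 9.66, 9.65 and 9.50 labelled uninduced and 10.85, 10.62, 10.59 and 10.74 labelled induced. Its groups did not overlap either, its difference was 1.04 ± 0.09, and its 7 probe sets kept within 0.87 and 1.31. NPC2, which hands cholesterol out of lysosomes, was higher by 0.75 ± 0.16.

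The next members work in DNA repair, the cell cycle, RNA processing and translation, or are enzymes of the cytosol. MLH3, a mismatch repair protein, read 6.66, 6.67, 6.28 and 6.52 in arrays labelled uninduced. It read 8.56, 8.19, 8.14 and 8.29 in arrays labelled induced. The groups were more than 1 log2 unit apart at every array, its difference was 1.76 ± 0.13 or 3.40-fold, and 18 of 18 probe sets were higher. EIF2B2, a subunit of the exchange factor for the translation factor eIF2, was higher by 1.19 ± 0.11, and ACYP1, an acylphosphatase, by 1.24 ± 0.16. In ACYP1, 7980267 likewise passed through the arrays labelled induced. The difference of ACYP1 was 1.07 with only probe sets above the median signal. NEK9, a kinase of the mitotic spindle, was higher by 1.10 ± 0.12 in 24 of 24 probe sets. FCF1, which helps to process the small subunit of the ribosome, was higher by 1.07 ± 0.17, and YLPM1, a nuclear protein, by 0.90 ± 0.07. LIN52, a subunit of the DREAM and MuvB complexes that control cell cycle genes, had the smallest difference among genes whose groups did not overlap, 0.43 ± 0.12, and its nearest arrays read 8.80 and 8.81.

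**Figure D2:**
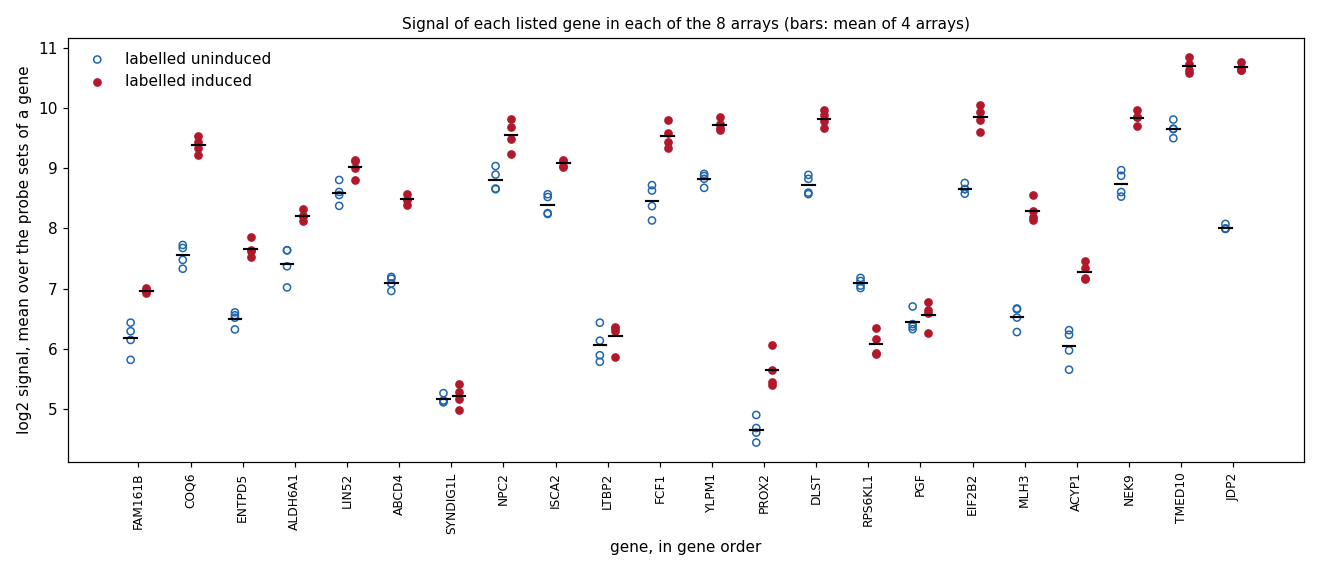
Each circle is 1 array: the log2 signal of a listed gene averaged over its passing probe sets, open blue for arrays labelled uninduced and filled red for arrays labelled induced, with bars at the mean of 4 arrays. The groups separate upward in 18 genes and downward in RPS6KL1, and they overlap in SYNDIG1L, LTBP2 and PGF.

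The edges of the list differ. FAM161B, a relative of the ciliary protein FAM161A, opens it and read 6.29, 6.43, 5.82 and 6.15 labelled uninduced and 6.92, 6.97, 6.97 and 7.01 labelled induced. Its groups did not overlap, and its difference of 0.80 ± 0.13 fell to 0.39 when its 2 dim probe sets were counted too. JDP2, a repressor that dimerises with AP-1 proteins, closes the list. It read 8.0, 7.99, 8.07 and 7.99 labelled uninduced and 10.64, 10.66, 10.63 and 10.77 labelled induced, with the widest gap of the 22 genes (2.66 ± 0.04, or 6.32-fold). That gene mean joined unlike probe sets. Probe set 7975788 read 13.91, 13.95, 13.92 and 14.01 labelled uninduced and 13.68, 13.77, 13.73 and 13.67 labelled induced. The difference was -0.23 ± 0.13, at signals below the highest value of 15.1 over all probe sets. All 4 arrays labelled induced lay below the others there, while the other 4 probe sets were higher by 1.20 to 4.65. Without it the mean difference of the gene was 3.38 or 10.4-fold. Of those 4, 7975790 read 6.56, 6.67, 6.38 and 6.20 labelled uninduced and 11.15, 11.04, 10.93 and 11.26 labelled induced.

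RPS6KL1, which encodes a protein with a kinase-like domain, was the only gene with a lower mean in arrays labelled induced. It read 7.13, 7.18, 7.05 and 7.01 labelled uninduced and 5.94, 6.34, 6.16 and 5.91 labelled induced. The groups did not overlap in the direction opposite to its neighbours DLST and EIF2B2, and the difference was -1.0 ± 0.11. Its 11 passing probe sets were of 2 kinds: 6 differed by -2.29 to -1.21, of which 5 had groups that did not overlap, and 5 lay between -0.25 and 0.09. Probe set 7980224, at the bottom, read 7.67, 7.74, 7.37 and 7.75 labelled uninduced and 5.52, 5.52, 5.94 and 4.41 labelled induced, so that every array labelled induced was well below the rest. With only probe sets above the median signal the mean difference of RPS6KL1 was -0.52.

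In 3 further genes the groups overlapped. LTBP2, a matrix protein of the family of latent TGF-beta binding proteins, read 6.13, 5.79, 5.89 and 6.43 labelled uninduced and 5.87, 6.34, 6.37 and 6.30 labelled induced. The values of both groups were mixed (0.16 ± 0.19), and 11 of 24 passing probe sets were higher. PGF, a growth factor of the VEGF family, read 6.41, 6.33, 6.37 and 6.70 labelled uninduced and 6.26, 6.64, 6.78 and 6.59 labelled induced. It too was mixed (0.11 ± 0.14), with 5 of 8 probe sets higher. SYNDIG1L, a relative of a synapse protein, read 5.14, 5.11, 5.26 and 5.12 labelled uninduced and 4.99, 5.41, 5.17 and 5.29 labelled induced. These values lie near the floor of the filter and differ by 0.05 ± 0.10. PROX2, a homeobox gene, was dim as well (4.66 ± 0.19 and 5.64 ± 0.30, SD), but its groups did not overlap. Its difference of 0.98 rested on 2 probe sets and was 0.66 over all 5. Probe set 7980216 read 3.84, 4.11, 4.09 and 4.56 labelled uninduced and 5.43, 6.66, 5.27 and 6.31 labelled induced. Its arrays labelled uninduced all lay below the floor of the filter, so it passed through the arrays labelled induced. The other, 7980218, differed by 0.19 and overlapped between the groups. The separation of the PROX2 means thus came from 7980216.

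LTBP2, PGF, SYNDIG1L and RPS6KL1 held 27 of the 29 lower probe sets among their 46. In the other 18 genes 193 of 195 passing probe sets were higher. The 2 that were lower were the 2 brightest of the 241: 7975788 of JDP2, described above, and 7980111 of ALDH6A1, which read 14.02 labelled uninduced and 13.96 labelled induced. Dim and bright probe sets differed more broadly. Of the 182 member probe sets with a mean above 6.58, the median of all probe sets, 171 were higher and 145 had all arrays labelled induced on top (79.7%, against 22.5% of all probe sets that bright). Of the 59 dimmer ones, 41 were higher and 15 had all arrays on top (25.4%, against 10.6%). The mean includes the arrays labelled induced, so a probe set raised in them is more readily counted as bright. The split is therefore not independent of the label difference. The part of signal strength in which genes stand out from the common direction was not tested.

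Inside a gene, probe sets were put in the order of their numbers, which was taken to follow the chromosome. Probe-set numbers rose with the position of the gene in 98.6% of 14505 neighbouring gene pairs on the same strand. Gene-level numbers did so for all 8 plus-strand and all 14 minus-strand members. Both checks compare genes, so the order inside a gene was not tested. The 7 probe sets annotated to a member together with another gene were not used. Ordered this way, the probe set nearest the 5′ end had the lowest difference of its gene in 5 of 16 members (31.2%, against 38% of all such genes), counting genes with 4 or more passing probe sets and a mean of 0.5 or more over the rest. In DLST it differed by 0.12 against 1.20 for the rest of the gene, in ISCA2 by 0.01 against 0.82, in EIF2B2 by 0.58 against 1.26, and in NEK9 by 0.46 against 1.13. In JDP2 it was -0.23 against 3.38. In ALDH6A1 it was the second lowest (0.14 against 0.86). FCF1, MLH3, NPC2 and YLPM1 showed the opposite order (1.53 against 1.02, 2.01 against 1.75, 0.88 against 0.71, and 0.99 against 0.90). Among the same 16 members the 5′ probe set was below the mean of the rest in 12 (75.0%). The share over all 2058 such genes on the arrays was 80.5%, so the members were close to the background. At the 3′ end 7 of 17 members were below the rest (41.2%, against 53.7% of all).

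**Figure D3:**
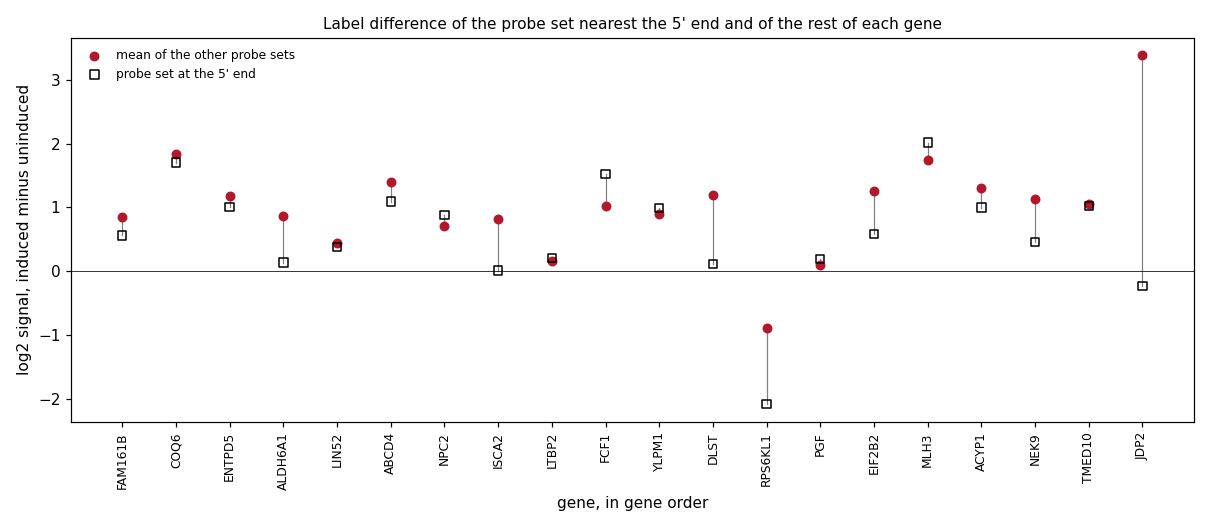
Listed genes with 4 or more passing probe sets are shown. The square is the log2 difference (induced minus uninduced) of the probe set nearest the 5′ end by number. The circle is the mean of the gene's other probe sets. The square lies near 0 in ALDH6A1, ISCA2, DLST and JDP2 while the circle does not, and it lies farthest above the circle in FCF1 and MLH3.

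Single probe sets also stood apart elsewhere in a gene. Probe set 7980118 of ABCD4, near the 3′ end by number, read 4.57, 4.48, 3.92 and 3.88 labelled uninduced and 7.37, 6.97, 7.93 and 7.42 labelled induced. Its arrays labelled uninduced lay below the filter's 4.77, so it passed through the arrays labelled induced and its difference is given without a fold; the other 21 probe sets were higher by 0.24 to 2.14. At the 3′ end of ENTPD5 by number, probe set 7980081 read 8.01, 8.79, 8.42 and 8.69 labelled uninduced and 8.84, 8.73, 8.35 and 8.42 labelled induced. It overlapped between the groups (0.11 ± 0.21, SE), while the other 14 were higher by 0.52 to 2.08. In ALDH6A1, probe set 7980106 was higher by 1.86 ± 0.41, against a mean of 0.70 for the other 11. It read 6.47, 5.19, 4.95 and 6.53 labelled uninduced and 7.78, 7.73, 7.76 and 7.32 labelled induced, without overlap but with a wide spread in the first group.

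**Figure D4:**
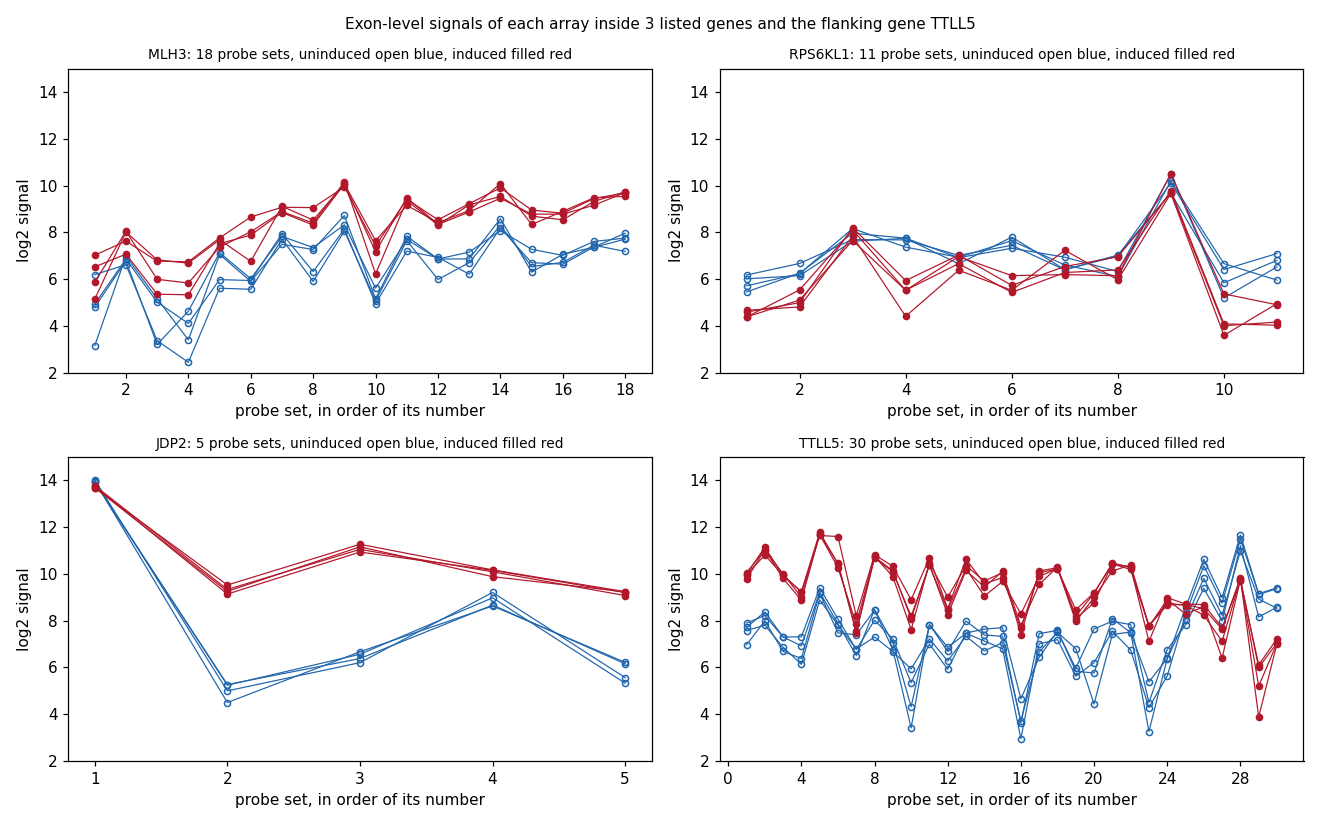
Log2 signals of each array (open blue, labelled uninduced; filled red, labelled induced) are plotted against the probe sets of MLH3, RPS6KL1, JDP2 and the flanking gene TTLL5, in the order of their numbers. The 2 groups run apart at 17 of 18 probe sets of MLH3, overlap at 6 of 11 in RPS6KL1, differ by -0.23 at the first one in JDP2, and cross near the end of TTLL5.

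Head-to-head neighbours mostly went the same way. NPC2 and ISCA2 differed by 0.75 and 0.68. FCF1 was higher by 1.07 and AREL1, a ubiquitin ligase outside the list, by 1.09 ± 0.06. FAM161B was higher by 0.80 and COQ6 by 1.83. ACYP1 was higher by 1.24 and ZC2HC1C, also outside the list, by 0.42 ± 0.09. BBOF1 went the other way from ENTPD5 (-0.46 ± 0.20 against 1.17 ± 0.09), but only 2 of its 10 probe sets passed the filter and its groups overlapped. Members were chosen because most went in one direction, so agreement within a pair largely follows from that choice. No share over other neighbouring genes was taken. Neighbours also share arrays and, at their starts, sequence, so these pairs are descriptions.

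The 5 other genes of the interval held 33 passing probe sets, of which 25 were higher, 22 of them in AREL1. VRTN (0.00 ± 0.17) and FOS (-0.27 ± 0.15) overlapped between the groups, at mean signals of 4.98 and 6.16.

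Outside FAM161B and JDP2 the genes went both ways. ZNF410, a zinc finger protein next to FAM161B, had a mean difference of -0.01 ± 0.09, and its groups overlapped. Of its 15 passing probe sets, 13 lay between -0.31 and 0.47. Its last 2 by number, taken to lie on the side of FAM161B, were lower by 1.34 on the log2 scale on average. PTGR2, the gene before it, was higher by 0.82 ± 0.17, with 12 of 12 probe sets higher. Farther out MIDEAS was higher by 0.19 ± 0.05 without overlap, ACOT6 differed by 0.10 ± 0.14, and PNMA1 (-0.91 ± 0.08) and DNAL1 (-0.54 ± 0.11) were lower. These 6 genes had 54 passing probe sets, of which 39 were higher. In 5 all arrays labelled induced lay on top, and in 9 all lay below. Over all passing probe sets of the arrays, 52.2% were higher, 18.5% had them on top and 18.1% below. On the other side BATF, an AP-1 factor, overlapped between the groups (0.24 ± 0.20), but FLVCR2, a transporter, was higher by 0.65 ± 0.12 and ERG28, of sterol synthesis, by 1.96 ± 0.09. The direction then changed inside TTLL5, a tubulin-modifying enzyme with a mean difference of 1.86 ± 0.06.

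The first 28 probe sets of TTLL5 by number, 24 of which passed the filter, were all higher in arrays labelled induced, 26 of them without overlap. Together they read 6.11, 6.11, 6.47 and 6.41 labelled uninduced and 8.94, 8.78, 8.72 and 8.76 labelled induced, a 5.75-fold difference. Of the last 7, 1 differed by 0.42 and 6 were lower without overlap. These 7 read 8.96, 8.86, 8.25 and 8.54 labelled uninduced and 6.91, 7.45, 7.27 and 7.05 labelled induced, which is 2.80-fold lower. The split point, like that in ZNF410, was put where it separated the differences best, after the values were seen. Beyond TTLL5, TGFB3 was dim (5.87 ± 0.11 and 5.70 ± 0.06, SD) and IFT43, of the transport system of cilia, was lower in 8 of 8 probe sets (-0.80 ± 0.15). The 6 genes after JDP2 had 70 passing probe sets, of which 48 were higher. In 37 all arrays labelled induced lay on top, and in 11 all lay below. Over all passing probe sets these shares were 18.5% and 18.1%.

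B codes and last numbers were not used to choose the genes, so these contrasts could be tested. Limma, fitted to all 168240 probe sets with Benjamini-Hochberg adjustment, called 0 (0%) between B_4 and B_1 and 0 (0%) between last numbers 4 and 1. At an unadjusted p under 0.05, 7 of 241 members (2.9%) differed between B codes, against 7.22% of all probe sets, and 11 (4.56%) between last numbers, against 5.57%. The lowest limma adjusted p among members was 0.682 for B codes and 0.870 for last numbers. Members nearest to a call for the B code were 7980254 of MLH3 (-0.75 ± 0.26), 7980228 of RPS6KL1 (0.51 ± 0.18), 7980259 of MLH3 (-0.43 ± 0.16) and 7980150 of NPC2 (-0.37 ± 0.14). For the last number they were 7980183 of LTBP2 (1.57 ± 0.37), 7980104 of ALDH6A1 (0.75 ± 0.21), 7980216 of PROX2 (0.75 ± 0.23) and 7980276 of NEK9 (-0.83 ± 0.27). The median absolute difference of members was 0.15 between B codes and 0.14 between last numbers, against 0.18 and 0.17 over all probe sets. Members leaned lower in B_4: 84 of 241 were higher there, against 48.4% of all probe sets higher, with a median of -0.08 against -0.01, and 15 of 22 gene means were lower. For last numbers 93 of 241 were higher in 4, against 45.2% of all.

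The label difference was also compared between B codes and between last numbers. Over the 22 genes its median was 0.88 within B_1 and 1.01 within B_4, and 0.96 and 1.0 within last numbers 1 and 4. It was larger in B_4 for 15 of 22 genes and larger in last number 4 for 10. Over probe sets, 151 of 241 members had a larger difference in B_4, against 51.4% of all, with a median gap of 0.10 against 0.02. In both B codes 21 genes were higher, RPS6KL1 being the exception at -1.01 and -0.99. ACYP1 had the widest gap between B codes, 1.58 within B_1 and 0.89 within B_4. Limma interaction terms called 0 probe sets (0%) for label by B code and 0 (0%) for label by last number. At an unadjusted p under 0.05 they held 15 members (6.22%, against 7.33% of all) and 7 members (2.9%, against 4.01%). The lowest limma adjusted p among members was 0.657 and 1.0. Nearest to a call by B code were 7980117 of ABCD4 (-1.51 ± 0.30), 7980286 of NEK9 (1.41 ± 0.29), 7980139 of ABCD4 (-3.62 ± 0.87) and 7980251 of MLH3 (1.33 ± 0.35). By last number they were 7980091 of ENTPD5 (-1.41 ± 0.38), 7980145 of SYNDIG1L (1.07 ± 0.32), 7980173 of LTBP2 (-1.19 ± 0.38) and 7980107 of ALDH6A1 (-1.16 ± 0.44). With 4 pairs, a p that misses the threshold does not show that the label difference is equal in both.

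**Figure D5:**
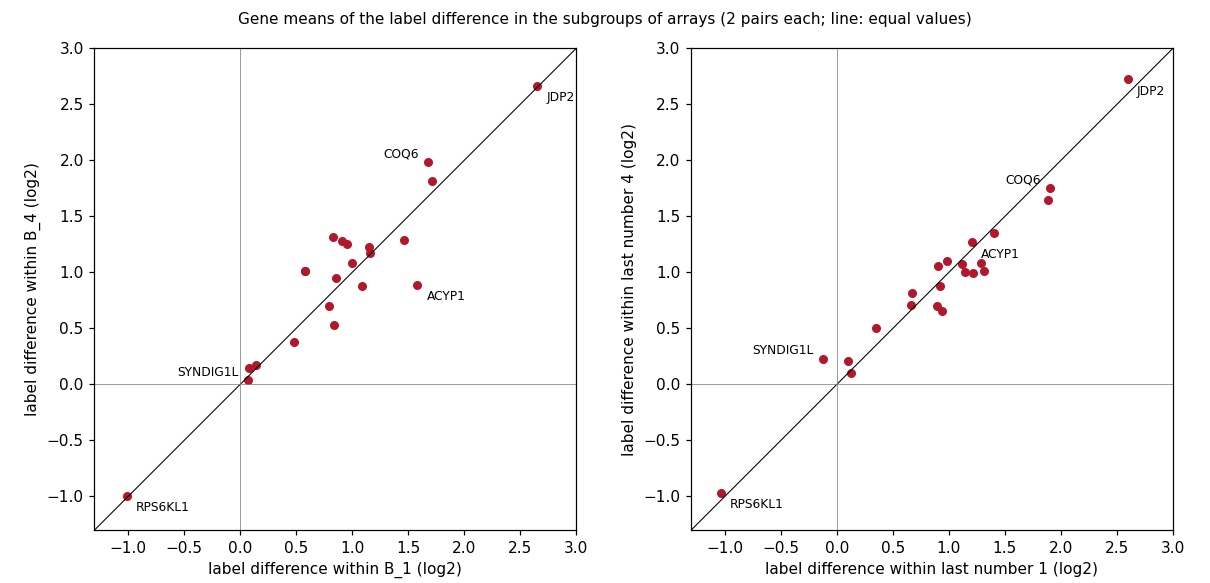
Each point is a listed gene; the axes are its label difference (log2, mean over passing probe sets) within B_1 and B_4 (left) and within last numbers 1 and 4 (right), with 2 pairs of arrays each and a line of equal values. Points follow the line, JDP2 at the top and RPS6KL1 at the bottom.

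The gene-level summary of the same arrays gave the same direction for all 22 genes. JDP2 was higher by 3.69, COQ6 by 1.72 and MLH3 by 1.72, and RPS6KL1 was lower (-0.91). It read less for the dim genes FAM161B (0.34) and PROX2 (0.45), and 0.08, 0.09 and 0.06 for PGF, LTBP2 and SYNDIG1L. In PGF, LTBP2 and SYNDIG1L the groups overlapped here too, so their direction is not settled.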

How the data were processed

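The deposited values are log2 signals made by the authors with RMA and Partek, per the submitters' processing notes. That the log base is 2 was inferred, since RMA gives log2 and values ran from 1.88 to 15.1. RMA equalises the arrays' distributions, so a global shift would be lost. No source used here names the genome build. The exon-level and gene-level samples are the same 8 arrays: 4428 of 4428 shared features were identical. Old symbols were updated through RefSeq (GRCh38.p14), otherwise used for gene order and promoter sequences.

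Of 257430 exon-level probe sets, 224320 had 1 symbol and were used, and those under the 25th percentile of mean signal were left out (168240 kept). Limma 3.58.1 in R 4.3.3 fitted label, B code and last number across all of them (threshold 0.05, residual degrees of freedom 4; interactions separately, 3), and scripts were tested on simulated data. Where ± gives an SE, that of a gene mean comes from the spread of its own arrays. That of a single probe set is limma's, which also draws on the spread of other probe sets, so the 2 kinds are not alike. Figures used matplotlib 3.10.9. Genes given with every array were the first 2 and last 2 of the list, the 4 largest and 3 smallest differences, and those whose mean, or at least 25% of whose passing probe sets, went against the majority; every neighbour in the interval and 6 on each side are given by their mean. Members, lists and the rule were chosen with earlier results of these data known; the 5′ end and TTLL5 descriptions were added after seeing the values. Alternatives are given in the closing section.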

Additional observations from a re-analysis of the deposited data

Results flagged for a closer look

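LTBP2 read 5.87 in the array labelled induced of replicate 1, while the other 3 of that group lay between 6.30 and 6.37, a gap of 0.859 of the group's range. JDP2 read 8.07 in the array labelled uninduced of replicate 3, while the other 3 lay between 7.99 and 8.0 (gap 0.897 of the range). These were 2 of 44 groups of 4 arrays looked at, and chance flags about 1 in 20. In SYNDIG1L the label difference was negative in both pairs with last number 1 (mean -0.12) and positive in both pairs with last number 4 (0.23), 0.35 apart. That difference was not tested as a gene mean.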

How the results depend on the processing

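The count of lower member probe sets, 29, was 11 with a filter at the median signal, which keeps fewer probe sets. The gene-level summary counts 23 features rather than probe sets, 22 higher and 1 lower. Leaving out each array in turn gave 23 to 35 lower, 206 to 218 higher and a median over genes of 0.96 to 1.05. Limma called 0 probe sets for B code, last number and both interactions under every alternative that was run. Same-numbered arrays deviated together only weakly (correlations from -0.05 to 0.03), so the numbers were not taken to pair them; a replicate block of the pair cannot move mean differences in 4 complete pairs (29, 212 and 1.01 by construction), and with it both interactions again had 0 calls. Quantile normalisation and median centring gave 27 lower and 214 higher. As the median of its probe sets, JDP2 was 3.37 and LTBP2 was -0.05, opposite in sign to the mean of LTBP2. Main effects of B code and last number were not run with the block, which contains them. Signal over background was not used here, so no limit from it is given.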
